A study of Mus musculus with 2 samples.

Results

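The genes described here are 5 Wnt ligands (Wnt2, Wnt2b, Wnt4, Wnt5a and Wnt11) and 2 R-spondins (Rspo1 and Rspo3), 7 of the 16388 genes measured at both stages of a single-cell RNA sequencing study of the mouse second heart field. They were chosen by name, and their levels are given in every library together with the cells in which they were found together. The second heart field supplies mesodermal progenitors to the arterial and venous poles of the growing heart tube, and the cells are described as positive for Osr1, which encodes a zinc finger transcription factor expressed in its posterior portion. Osr1 was counted at least once in each of the 1500 cells, and how the cells had been selected is not given in the sources used here. All embryos were wild type, and there was 1 sample per stage: 967 cells at embryonic day E10.5 and 533 cells at E9.5. The barcode suffix gives the dissected position, which divides the E10.5 sample into 560 posterior, 331 middle, 31 outflow tract and 45 anterior cells and the E9.5 sample into 418 posterior, 61 middle and 54 anterior cells. Each combination of stage and position is called a library here. Nothing in the labels says how many embryos were pooled.

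Wnt ligands are secreted lipid-modified glycoproteins that bind Frizzled receptors. Some, together with an Lrp5 or Lrp6 co-receptor, stabilise β-catenin, and others, of which Wnt5a and Wnt11 are the best studied, act mainly through pathways that orient cells and shape tissues. R-spondins are secreted proteins that do not activate Frizzled themselves. They bind Lgr receptors and the membrane ligases Znrf3 and Rnf43, and by removing these ligases they raise the amount of Frizzled at the cell surface and so the response to Wnt. In the mouse, Wnt2 is known from the posterior pole of the heart and from the mesenchyme of the lung bud, and Wnt5a and Wnt11 from outflow tract development.

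Depth differed by stage. The libraries held between 196584 and 3448474 unique molecular identifiers (UMIs, 1 per captured transcript) at E10.5 and between 1296187 and 13647039 at E9.5, with median UMIs per cell of 5262 to 6084 at E10.5 and 23021 to 31251 at E9.5. Levels are therefore given as CPM, the counts of a gene scaled to a library total of 1000000 UMIs, and the percentage of cells with a UMI is shown both as measured and after each cell had been thinned at random to 4500 UMIs. Intervals are exact 95% intervals that cover counting error only. Summed CPM of the 9 second heart field markers, which include Osr1 itself, was 764 posterior, 747 middle, 346 in the outflow tract and 288 anterior at E10.5, and 558 posterior, 503 middle and 477 anterior at E9.5. The libraries also held other cells. By marker genes, clusters resembling foregut epithelium made up 7.50% of E10.5 posterior and 0 of 45 E10.5 anterior cells (floor 6.67%). At E9.5 they made up 12.9% of posterior and 72.2% of anterior cells. Another 17.5% of the E9.5 posterior cells lay in a cluster resembling cardiomyocytes. Only 1 cell barcode was shared between libraries of a stage.

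The members lie on 6 chromosomes of the mouse genome (GRCm38, which is mm10; GENCODE vM21) and all are annotated as protein coding. Wnt2 spans chr6:17988940-18030585 on the minus strand, Wnt2b chr3:104945272-104961921 (minus), Wnt4 chr4:137277489-137299726 (plus), Wnt5a chr14:28504750-28527448 (plus), Wnt11 chr7:98835112-98855195 (plus), Rspo1 chr4:124986430-125009099 (plus) and Rspo3 chr10:29452416-29535867 (minus). Promoter windows from 250 bases before to 50 bases after the transcription start were taken from RefSeq (GRCm38.p6), which matched 5 of the 7 members. Those of the 3 genes on which the results below turn are printed 5′ to 3′ on the gene's own strand, with CpG dinucleotides in capitals: Wnt2 and Rspo1, which differed between posterior and anterior libraries, and Wnt4, which was found in the same cells as Rspo1.
Wnt2, chr6:18030396-18030695, minus strand: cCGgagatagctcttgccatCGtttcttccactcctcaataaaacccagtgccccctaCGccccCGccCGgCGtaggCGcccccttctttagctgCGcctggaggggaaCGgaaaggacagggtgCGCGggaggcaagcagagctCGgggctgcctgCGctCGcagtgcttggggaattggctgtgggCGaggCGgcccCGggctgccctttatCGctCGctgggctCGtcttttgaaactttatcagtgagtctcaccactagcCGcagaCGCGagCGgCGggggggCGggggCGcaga
Rspo1, chr4:124986180-124986479, plus strand: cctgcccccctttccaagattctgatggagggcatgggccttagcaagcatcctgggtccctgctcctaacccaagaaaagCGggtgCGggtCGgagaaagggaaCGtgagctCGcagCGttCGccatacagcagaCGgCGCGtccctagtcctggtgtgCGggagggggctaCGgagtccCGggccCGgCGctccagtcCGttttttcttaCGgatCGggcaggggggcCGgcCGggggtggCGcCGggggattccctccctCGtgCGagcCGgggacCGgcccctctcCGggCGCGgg
Wnt4, chr4:137277385-137277684, plus strand: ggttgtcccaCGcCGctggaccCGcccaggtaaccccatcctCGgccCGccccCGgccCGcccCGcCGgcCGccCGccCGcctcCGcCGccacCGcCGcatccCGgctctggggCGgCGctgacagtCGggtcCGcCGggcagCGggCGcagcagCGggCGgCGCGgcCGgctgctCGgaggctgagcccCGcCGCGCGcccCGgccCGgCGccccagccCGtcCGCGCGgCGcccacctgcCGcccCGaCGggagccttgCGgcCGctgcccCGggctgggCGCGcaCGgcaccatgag
All 3 windows are rich in CpG. The Wnt2 window has 27 CpG dinucleotides at 65.7% GC, the Rspo1 window 29 at 69.0% GC and the Wnt4 window 51 at 84.3% GC, against a median of 7 CpG and 52.7% GC over all 32851 promoter windows. The observed over expected CpG ratio was 0.837, 0.818 and 0.977 in that order, and 33.5% of all windows pass both a GC share of 50% and a ratio of 0.6. Both strands were searched for motifs of 5 factor families. CTTTGA, the motif of the TCF/LEF factors through which β-catenin acts, is in 16.0% of all windows. For T-box factors the letters were GGTGTGA, present in 3.98% of all windows. The GATA letters AGATAA are present in 11.2% of them. For forkhead factors the letters were TGTTTAC, present in 3.65%. The GLI letters TGGGTGGTC are in 0.253%. None of these letters occurs in the 3 windows printed. Among the members' windows the only match was CTTTGA on the minus strand of a Wnt11 window, 50 bases before the start.

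Wnt2 was counted in posterior and middle libraries and in no anterior or outflow tract cell. At E10.5 its level was 42.6 CPM in posterior cells (147 counts) and 42.6 CPM in middle cells (87 counts), with 0 counts in the 31 outflow tract and 45 anterior cells. At E9.5 it was 156 CPM in posterior cells (2128 counts) and 56.8 CPM in middle cells (91 counts), with 0 counts in the 54 anterior cells. Both stages thus gave the same order of posterior and middle over anterior. The floor of the anterior library was 11.8 CPM at E10.5 and 2.31 CPM at E9.5. With 3 counts set in the anterior library, Wnt2 was 3.61-fold higher in posterior than in anterior cells at E10.5 and 67.4-fold higher at E9.5. The share of cells with a Wnt2 UMI was 16.8% posterior and 17.2% middle at E10.5, against 59.1% posterior and 36.1% middle at E9.5. After thinning these were 13.6% and 12.7% at E10.5 and 33.9% and 14.8% at E9.5. Cells carrying Wnt2 held 8.61 Wnt2 UMIs on average in the E9.5 posterior library, with a maximum of 45, and 4.14 in the E9.5 middle library.

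The edgeR quasi-likelihood fit of the 6 libraries from the 3 positions taken at both stages, with stage as a term, called Wnt2 higher in posterior than in anterior cells (adjusted p = 0.0158). Because both anterior libraries were at 0, the fitted fold is no bound and is not given. Of 9825 genes tested, 0.295% were called in this comparison, 15 (0.153%) higher and 14 (0.142%) lower in posterior cells, and 6 of the 7 members passed the filter on low counts, Wnt2b being left out. The Wnt2 call was lost without the stage term (adjusted p = 0.922) and held when any 1 library was left out, with adjusted p over all alternatives between 1.93e-37 and 0.922. The fits with 1 library left out called 95 to 332 genes in this comparison, against 29 with all 6 libraries. Leaving out every cell of a named other type, which removes 42 of the 54 E9.5 anterior cells and 215 of the 418 E9.5 posterior cells, gave adjusted p = 0.00234. Posterior against middle cells differed by 0.68 ± 0.37 (log2 fold ± SE), which was not called (adjusted p = 0.997). Without the E10.5 posterior library it was 1.43 and passed (adjusted p = 0.000624, among alternatives from 0.000624 to 1.00), and without an E9.5 posterior or middle library its direction turned (-0.13 and -0.18). Within stages the ratio was 1.00 (0.762 to 1.32) at E10.5 and 2.74 (2.22 to 3.42) at E9.5. Summed CPM of the 6 measured cardiomyocyte markers was 2304 in posterior, 249 in middle and 593 in anterior cells at E9.5, and 244, 80.3 and 134 in that order at E10.5, so they stood with Wnt2 in the E9.5 posterior library but not in the order of the other libraries. Their part in the E9.5 difference between posterior and middle cells was not tested. Without the cells of other named types, cardiomyocyte-like ones included, the fitted difference between posterior and middle cells was 0.25 ± 0.27.

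Wnt4, which is required for kidney tubule formation and female reproductive tract development in the mouse, was also mainly a posterior and middle gene. At E10.5 its level was 86.4 CPM in posterior cells (298 counts), 97.0 CPM in middle cells (198 counts), 5.09 CPM in the outflow tract (1 count) and 3.94 CPM in anterior cells (1 count). At E9.5 it was 24.8 CPM in posterior cells (338 counts), 5.0 CPM in middle cells (8 counts) and 1.54 CPM in anterior cells (2 counts). Posterior exceeded anterior at both stages, while middle cells were within counting error of posterior ones at E10.5 and lower at E9.5. The posterior to anterior ratio was 21.9 (3.91 to 870) at E10.5 and 16.1 (4.41 to 133) at E9.5, and the posterior to middle ratio 0.891 (0.742 to 1.07) and 4.96 (2.49 to 11.6). The fit gave 4.08 ± 0.86 for posterior against anterior cells, which was not called (adjusted p = 0.177). That outcome depended on the setting. Wnt4 passed with DESeq2 (adjusted p = 0.0178), without the filter on low counts, without cells of other named types (adjusted p = 0.0220) and in 6 of 6 fits that left out 1 library, over a range of 9.06e-14 to 1.00 among all alternatives. Posterior against middle cells differed by 0.55 ± 0.47, a value whose direction turned to -0.36 and -0.24 without the E9.5 middle or the E9.5 posterior library. Without the E10.5 posterior library it was 2.01 and passed (adjusted p = 0.00446, among alternatives from 0.00446 to 1.00).

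Wnt5a, a ligand of the planar cell polarity branch, ran the other way. At E10.5 its level was 12.5 CPM in posterior cells (43 counts), 74.0 CPM in middle cells (151 counts), 71.2 CPM in the outflow tract (14 counts) and 67.0 CPM in anterior cells (17 counts). At E9.5 it was 13.1 CPM in posterior cells (179 counts), 40.6 CPM in middle cells (65 counts) and 26.2 CPM in anterior cells (34 counts). The posterior library was the lowest at each stage, and the 3 other E10.5 libraries lay within each other's intervals. Posterior cells held 0.169 (0.117 to 0.238) of the middle level at E10.5 and 0.323 (0.242 to 0.436) at E9.5, and 0.186 (0.104 to 0.348) and 0.50 (0.345 to 0.744) of the anterior level. The fit gave -2.11 ± 0.35 for posterior against middle cells (adjusted p = 0.0767) and -1.66 ± 0.40 for posterior against anterior cells (adjusted p = 0.248). Neither was called, and 0.193% of all genes were called between posterior and middle cells, 14 (0.142%) higher and 5 (0.0509%) lower. Each passed in 5 of 6 fits that left out 1 library, but those fits also called more genes, 37 to 231 between posterior and middle cells. With DESeq2 the difference between posterior and middle cells had adjusted p = 0.00355, and without cells of other named types edgeR gave -2.67 ± 0.27 (adjusted p = 0.000246), among alternatives from 7.62e-08 to 1.00. Wnt5a was found in 6.79% of posterior and 33.5% of middle cells at E10.5, and in 23.4% of posterior and 49.2% of middle cells at E9.5. After thinning the shares were 5.10% and 28.9% at E10.5 and 3.17% and 19.7% at E9.5.

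Wnt11 and Wnt2b were scarce. Wnt11, like Wnt5a a ligand of the planar cell polarity branch, had 9.28 CPM in posterior cells (32 counts) and 9.80 CPM in middle cells (20 counts) at E10.5, with 0 counts in the outflow tract and anterior libraries, and 2.42 CPM in posterior cells (33 counts), 0 counts in middle cells and 1.54 CPM in anterior cells (2 counts) at E9.5. The floor was 15.3 CPM in the outflow tract and 11.8 CPM in the E10.5 anterior library. A lower Wnt11 level there was therefore not detectable at this depth. The fit gave 1.34 ± 1.37 for posterior against anterior cells (adjusted p = 0.929). Wnt2b, a close paralogue of Wnt2, had 4 counts in posterior and 3 in middle cells at E10.5 and 17 counts in 15 posterior cells at E9.5, and none elsewhere. Its level was 1.16 and 1.47 CPM in E10.5 posterior and middle cells and 1.25 CPM in E9.5 posterior cells, and the floors of the libraries at 0 lay above these values, so no fold is given.

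Rspo1, which in the mouse acts together with Wnt4 in ovary development, was the R-spondin whose position difference was called. Its level at E10.5 was 104 CPM in posterior cells (359 counts), 70.1 CPM in middle cells (143 counts), 15.3 CPM in the outflow tract (3 counts, all in 1 cell) and 7.88 CPM in anterior cells (2 counts). At E9.5 it was 60.9 CPM in posterior cells (831 counts), 19.99 CPM in middle cells (32 counts) and 0.772 CPM in anterior cells (1 count). The order was posterior, middle, anterior at both stages. Posterior cells exceeded anterior ones 13.2-fold (3.63 to 110) at E10.5 and 78.9-fold (14.1 to 3121) at E9.5, and exceeded middle cells 1.49-fold (1.22 to 1.82) and 3.05-fold (2.14 to 4.48). In the fit Rspo1 was 4.92 ± 0.61 higher in posterior than in anterior cells on the log2 scale (adjusted p = 0.0158). The call was lost without the stage term (5.08 ± 1.13, adjusted p = 1.00), was kept in 6 of 6 fits that left out 1 library (3.89 to 5.97), and with cells of other named types removed stood at 4.79 ± 0.68 (adjusted p = 0.00239), among alternatives from 3.75e-20 to 1.00. Against middle cells the difference of 0.96 ± 0.32 was not called (adjusted p = 0.870). Without the E10.5 posterior library it was 1.63 and passed (adjusted p = 0.00118), among alternatives from 0.00118 to 1.00. Rspo1 had a UMI in 38.9% of posterior, 31.1% of middle and 4.44% of anterior cells at E10.5, and in 60.5%, 34.4% and 1.85% of them at E9.5. After thinning the posterior share was 33.3% at E10.5 and 21.5% at E9.5.

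Rspo3, which in the mouse is needed for placental and vascular development, did not keep 1 order of positions. At E10.5 it had 40.0 CPM in posterior cells (138 counts), 30.4 CPM in middle cells (62 counts), 40.7 CPM in the outflow tract (8 counts) and 70.9 CPM in anterior cells (18 counts). At E9.5 it had 21.5 CPM in posterior cells (293 counts), 2.5 CPM in middle cells (4 counts) and 0 counts in anterior cells. The anterior library was therefore the highest of the E10.5 libraries and the lowest of the E9.5 ones. Posterior cells held 0.565 (0.344 to 0.981) of the anterior level at E10.5. At E9.5 they held 9.28 times it with 3 counts set in the anterior library. The fit, which takes 1 difference over both stages, gave 1.02 ± 0.97 (adjusted p = 0.924). Its direction turned when an E9.5 library was left out: -0.47 without the anterior and -0.63 without the posterior library. It passed without the E10.5 anterior library (adjusted p = 0.00125), where the only anterior library left is at 0 and the fitted fold is no bound, and without the E10.5 posterior library (3.53, adjusted p = 6.81e-05), the alternatives running from 6.81e-05 to 1.00. The posterior to middle ratio was 1.32 (0.970 to 1.81) at E10.5 and 8.59 (3.32 to 31.8) at E9.5, and the fitted 1.51 ± 0.86 was not called (adjusted p = 0.997). It passed without the E10.5 posterior library (4.19, adjusted p = 3.30e-07) and without the filter on low counts (adjusted p = 0.0317), among alternatives from 3.30e-07 to 1.00. Of the E9.5 anterior cells 72.2% lay in the epithelium-like cluster, in which Rspo3 had 1.57 CPM. The part of that cell makeup in the result was not tested.

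**Figure D1:**
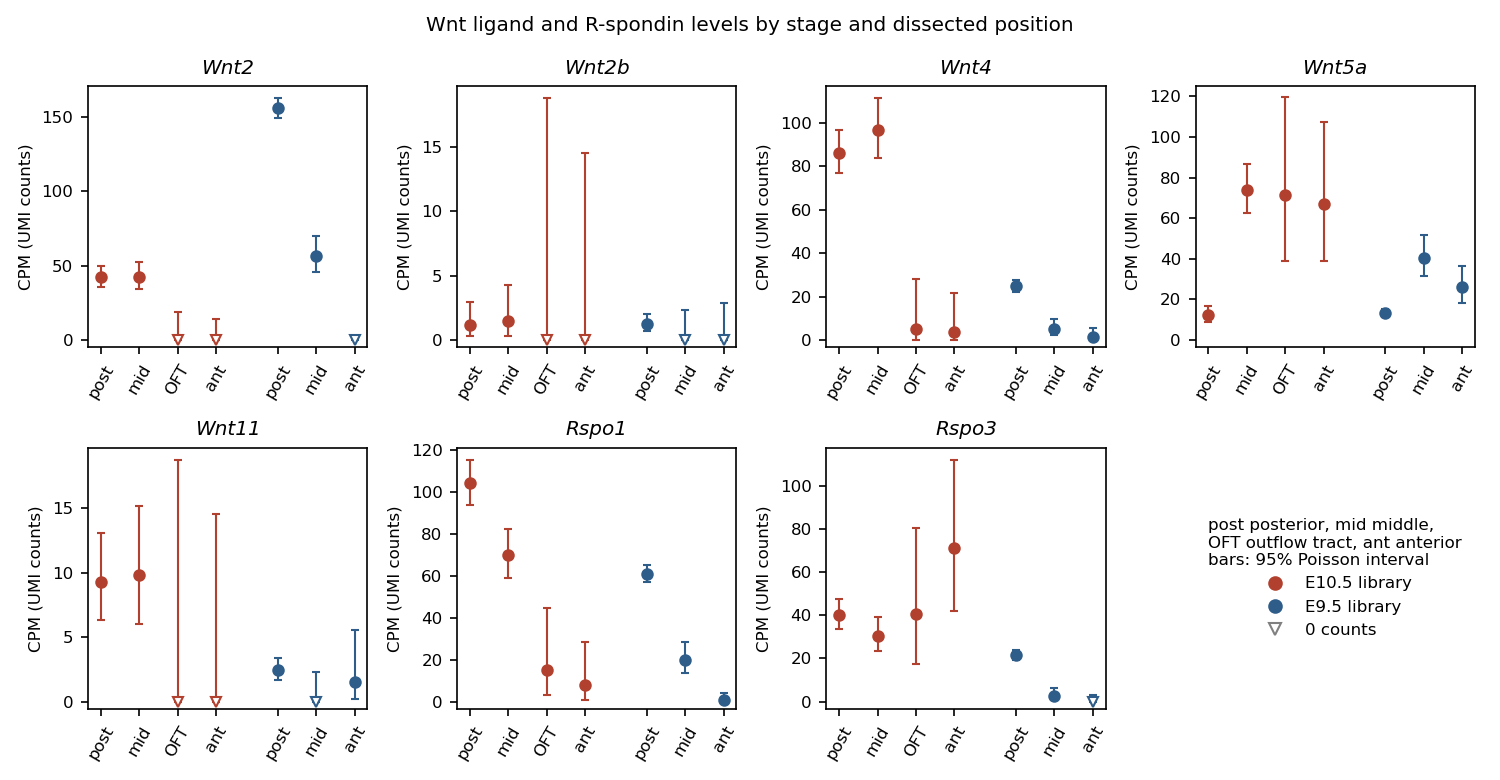
Level of each Wnt ligand and R-spondin in CPM (vertical axes, linear and on separate scales) in the 4 E10.5 libraries (red) and the 3 E9.5 libraries (blue), each 1 measurement with its exact 95% Poisson interval; open triangles mark 0 counts. Wnt2 and Rspo1 are highest in posterior and middle cells, Wnt5a is lowest in posterior cells at both stages, and Rspo3 in anterior cells is 70.9 CPM at E10.5 and 0 at E9.5.

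**Figure D2:**
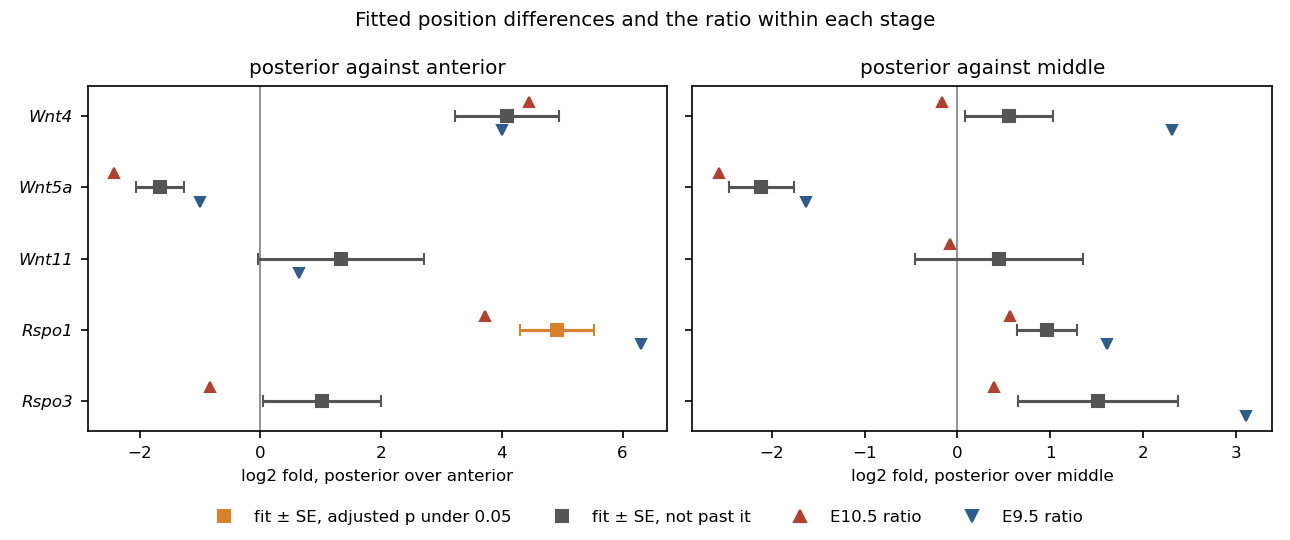
Log2 fold of posterior over anterior cells (left) and posterior over middle cells (right) for 5 of the genes: squares are the fit over both stages with its standard error, orange where the adjusted p was under 0.05, and triangles are the ratios within E10.5 (up) and E9.5 (down), missing where a library had 0 counts or where no fold is given. Rspo1 is orange on the left at 4.92, the E10.5 and E9.5 ratios of Wnt5a lie below 0 in both panels, and Wnt2 is not drawn because its anterior libraries were at 0.

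In the comparison of middle with anterior cells no gene was called by edgeR (0 of 9825 genes, 0%; 345 had an unadjusted p under 0.05, and DESeq2 called 4 genes). Rspo1 differed by 3.96 ± 0.67 (adjusted p = 0.323), Wnt4 by 3.53 ± 0.93, Wnt5a by 0.45 ± 0.39 and Rspo3 by -0.49 ± 1.04 on the log2 scale. Of 6 fits that left out 1 library, 5 called Wnt2, 5 called Rspo1 and 3 called Wnt4. For Wnt2, at 0 counts in both anterior libraries, DESeq2 gave adjusted p = 0.00218 where edgeR gave 0.307, among alternatives from 4.40e-21 to 1.00. The outflow tract, taken at E10.5 only, was set against E10.5 anterior cells without a test. Wnt5a was 1.06-fold (0.485 to 2.29) and Rspo3 0.574-fold (0.216 to 1.39) the anterior level, Wnt4 had 1 count in each library, and Wnt2, Wnt2b and Wnt11 had 0 counts in both. Rspo1 was 1.94-fold (0.222 to 23.2) the anterior level, from 3 and 2 counts. Of the members, Wnt5a and Rspo3 had at least 20 counts over both libraries, and neither was 2-fold or more apart. Of all genes with that many counts, 4.55% were 2-fold or more higher and 4.40% lower in the outflow tract.

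Between stages there was 1 sample each, so the differences are given without a test. Wnt4 was higher at E10.5 in posterior cells, 3.49-fold (2.98 to 4.09), and in middle cells, 19.4-fold (9.66 to 45.6). In anterior cells it had 3.94 against 1.54 CPM, from 1 and 2 counts. That ratio of 2.55 (0.0433 to 49.0) shows no direction. By CPM alone, Wnt4 was the only member 2-fold or more apart in 1 direction at all 3 positions, and its anterior value rests on those 3 counts. Of all genes with at least 50 counts, 3.28% were higher and 2.96% lower at all 3 positions. Rspo1 was 1.71-fold (1.51 to 1.94) higher at E10.5 in posterior and 3.51-fold (2.38 to 5.32) in middle cells. Rspo3 was 1.86-fold (1.51 to 2.29) higher in posterior cells and 12.2-fold (4.52 to 46.0) in middle cells. In anterior cells it was 30.6-fold higher with 3 counts set in the E9.5 library. Wnt11 was 3.84-fold (2.29 to 6.44) higher in posterior cells. Wnt2 was the member that ran opposite, at 0.273 (0.230 to 0.323) of its E9.5 level in posterior cells and 0.750 (0.553 to 1.02) in middle cells. Wnt5a stood at 0.951 of its E9.5 level in posterior cells and was 1.82-fold (1.35 to 2.48) higher at E10.5 in middle and 2.55-fold (1.34 to 4.70) higher in anterior cells. Among genes with at least 20 counts, 12.2% were 2-fold or more higher and 7.96% lower at E10.5 in posterior cells, 9.34% higher and 14.3% lower in middle cells, and 11.1% higher and 22.3% lower in anterior cells. Stage was measured together with depth and with the cell makeup of the libraries, from which it cannot be told apart.

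The cells that held each gene differed within a stage. At E9.5 Wnt2 was found in 97.3% of the 75 cells of the cardiomyocyte-like cluster, led by Actc1, Myl4 and Tnnc1, at 428 CPM, and this cluster held 49.4% of all E9.5 Wnt2 counts. The name covered the same number of E9.5 cells at the finer clustering resolution of 1.0, but 32 of them at 0.3 and 32 when E9.5 was clustered alone. The epicardial or mesothelial-like cluster had 167 CPM of Wnt2 and an unnamed cluster led by Hlx, Foxf1 and Hoxb1 had 75.3 CPM (24.9% of the Wnt2 counts). The epithelium-like cluster had 7.53 CPM, with a Wnt2 UMI in 1.83% of its cells after thinning against 74.7% in the cardiomyocyte-like cluster, at median depths of 27620 and 32900 UMIs before thinning. Wnt4, Rspo1 and Rspo3 had most of their E9.5 counts in the cluster led by Hlx and Foxf1, which held 87.1% of Wnt4, 72.7% of Rspo1 and 71.0% of Rspo3 counts. In the cardiomyocyte-like cells Wnt4 was at 1.17 CPM, Rspo1 at 29.6 CPM in 42.7% of the cells and Rspo3 at 11.3 CPM in 17.3% of them. Wnt4 was at 41.2 CPM in the cluster led by Hlx. Rspo1 was at 85.5 CPM in the cluster led by Hlx, 46.9 CPM in the epicardial or mesothelial-like and 1.25 CPM in the epithelium-like cluster. Wnt5a was at 26.1 CPM in the epicardial or mesothelial-like cluster and 20.7 CPM in the cluster led by Hlx. The epicardial or mesothelial-like name covered 93 cells at resolutions 0.3 and 1.0 too, but was not given when E9.5 was clustered alone. There a cluster of 66 cells with Dlk1 and Tbx18 among its leading genes was unnamed, and 1 of 25 cells led by Hand1 and Postn was called cushion mesenchyme-like.

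At E10.5 and resolution 0.6, Wnt2, Wnt4 and Rspo1 were highest in the same unnamed cluster, led by Pde5a and Nkx6-1. Of its 214 cells, 213 were posterior. Wnt2 was at 102 CPM there (50.9% of its E10.5 counts), Wnt4 at 180.5 CPM and Rspo1 at 158 CPM. A second posterior cluster, led by Barx1 and Igf1, had 12.4 CPM of Wnt2, 51.0 CPM of Wnt4, 107.5 CPM of Rspo1 and 56.4 CPM of Rspo3. Rspo3 was highest in the hepatoblast-like cluster at 79.5 CPM, in 24.5% of its cells after thinning, and at 19.8 CPM in the cluster led by Pde5a and Nkx6-1. Cell by cell, however, 0 of 5 hepatoblast markers had a higher share in Rspo3-positive than in Rspo3-negative E10.5 posterior cells, with summed shares of 15% and 36.0% after thinning. Wnt5a was highest, at 89.2 CPM with 60.4% of its counts, in a cluster led by haemoglobin genes, Rspo2 and Tagln in which 248 of 269 cells were middle ones. The E10.5 epithelium-like cluster, at a median of 6482 UMIs against 5104 in the cluster led by Pde5a and Nkx6-1, is given for comparison. After thinning 1.79% of the epithelium-like cells had a Wnt2 UMI, 12.5% a Wnt4, 5.36% an Rspo1 and 5.36% an Rspo3 UMI. Whether these UMIs come from free RNA was not tested, and for Wnt4 another cluster, led by Crym and Twist1 and holding 37 of the 45 anterior cells, lay lower at 6.15%. In the cluster led by Pde5a and Nkx6-1 these were 30.4%, 31.6%, 40.4% and 5.85%, so that the share for Rspo3 was near that in the epithelium-like cells. Since most of these clusters come from 1 library, a cluster may be that library and not a cell type. At the finer resolution of 1.0, Pde5a led a cluster of 122 cells, and Msc and Nkx6-1 led another of 114 cells. The members' levels in those clusters were not obtained, so Wnt2, Wnt4 and Rspo1 need not be highest in 1 cell population.

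**Figure D3:**
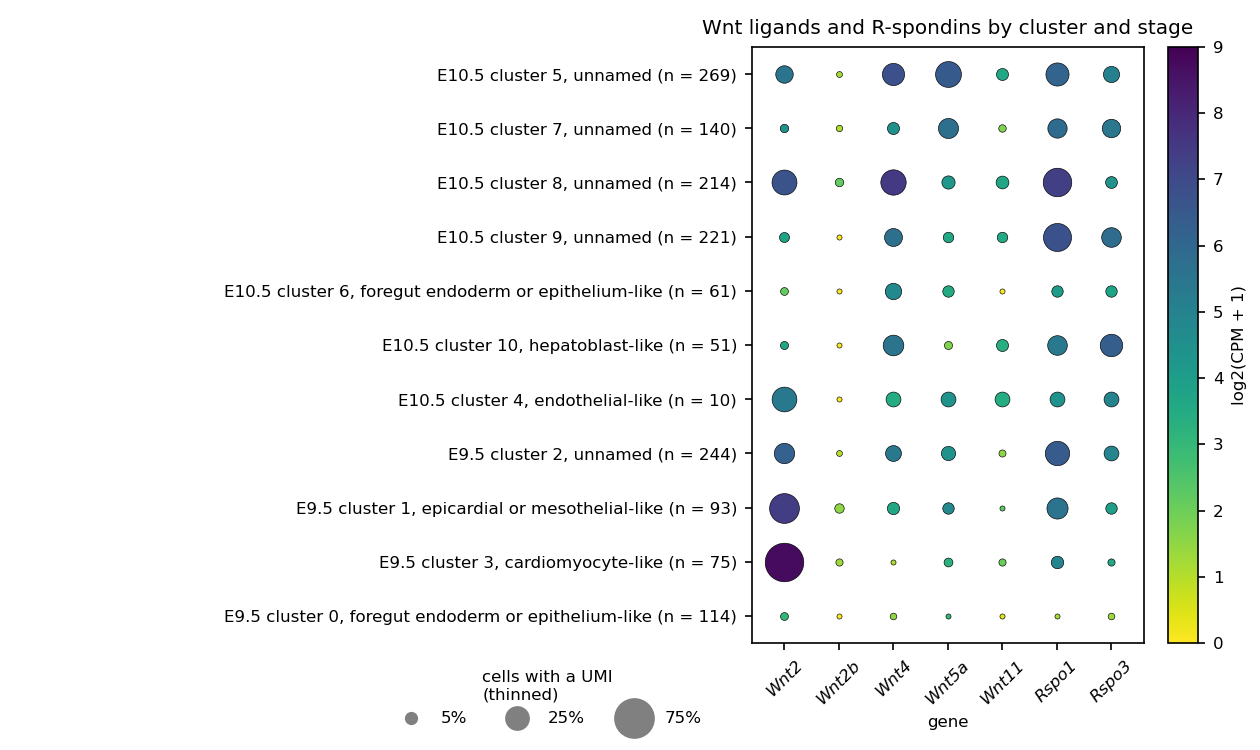
Level of each gene (colour, log2 of CPM plus 1) and share of cells with a UMI after thinning to 4500 UMIs (dot area) in the clusters of E10.5 (upper rows) and E9.5 (lower rows), with the number of cells of each cluster. Wnt2 is highest in the E9.5 cardiomyocyte-like cluster (428 CPM). At the resolution drawn (0.6), Wnt4 and Rspo1 are both highest in E10.5 cluster 8 (180.5 and 158 CPM).

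How often members were found in the same cells depended on the pair and on depth. Wnt4 with Rspo1 was the pair with the largest excess in number of cells in both posterior libraries. By the ratio to the number expected within clusters, Wnt4 with Rspo3 stood higher. That ratio was 1.53 against 1.46 for Wnt4 with Rspo1 in E10.5 posterior cells, and 1.49 against 1.19 in E9.5 posterior cells. At E10.5, 81 of 560 posterior cells had a UMI of both, against 51.8 expected if the genes were spread independently. Of the Wnt4-positive cells 60.9% (52.1 to 69.2) had Rspo1, against 32.1% (27.7 to 36.7) of the Wnt4-negative cells. In E9.5 posterior cells the pair was found in 88 cells against 60.5 expected, with Rspo1 in 88.0% (80.0 to 93.6) of Wnt4-positive and 51.9% (46.2 to 57.5) of Wnt4-negative cells. After thinning, which removes differences in depth between cells, the shares were 51.0% and 28.8% at E10.5 and 40.0% and 19.7% at E9.5. The E9.5 value rests on 35 Wnt4-positive cells, 14 of them with Rspo1. Its intervals, 23.9% to 57.9% and 15.8% to 24.1%, overlapped. The number expected when the genes are spread independently within each cluster was 55.4 at E10.5 and 74.0 at E9.5, still below the 81 and 88 cells seen. In E10.5 middle cells the excess was smaller, with 32 cells against 26.5. Cells are not replicates, so these numbers carry no test.

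Rspo3 also accompanied Wnt4. The pair was in 27 E10.5 posterior cells against 19.95 expected, in 17 E10.5 middle cells against 12.1 and in 52 E9.5 posterior cells against 27.3. With the posterior cells divided into 4 bins of like depth, 20.3 cells were expected at E10.5 and 29.6 at E9.5, and within clusters 17.7 and 34.8, all below the 27 and 52 cells seen. After thinning the pair was in 15 posterior cells against 12.2 at E10.5 and in 3 against 2.65 at E9.5, where 35 cells with Wnt4 and 31 with Rspo3 were left. Rspo1 and Rspo3 shared 38 posterior cells against 32.7 expected at E10.5 and 94 against 69.0 at E9.5, and after thinning 20 against 20 and 10 against 6.65.

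For Wnt2 the numbers shared with Wnt4 and with the R-spondins in E9.5 posterior cells lay close to those expected over the library. Wnt2 and Wnt4 shared 59 cells there against 59.1 expected, after thinning 7 against 11.9, and within clusters 59 against 51.25. Wnt2 and Rspo1 shared 155 cells against 149.5 expected, after thinning 25 against 29.8, and within clusters 155 against 151. At E10.5 both pairs lay above the expected number in posterior cells, with 27 against 22.3 for Wnt4 and 42 against 36.6 for Rspo1. Spread within clusters, 28.5 and 40.2 cells were expected there. Wnt2 with Rspo3 lay below it in all 3 larger libraries: 11 cells against 14.1 in E10.5 posterior, 3 against 8.09 in E10.5 middle and 66 against 67.4 in E9.5 posterior cells. Within clusters 8.62, 7.93 and 65.4 cells were expected, which leaves only the E10.5 middle library below. Wnt4 and Wnt11 shared 4 posterior cells against 7.36 expected at E10.5 and 15 against 6.22 at E9.5. After thinning they shared 4 against 4.69 at E10.5 and 1 against 0.256 at E9.5. Wnt5a and Rspo3 shared 18 E9.5 posterior cells against 26.7 expected, also 26.7 within clusters. At E10.5 they lay above, with 7 against 5.70 in posterior and 20 against 15.8 in middle cells. Of the 21 pairs, 12 lay above the expected number in both posterior libraries, 8 did so after thinning to 4500 UMIs and 3 after thinning to 3000 UMIs. The share over all pairs of genes was not obtained, so no general excess is read from these numbers.

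**Figure D4:**
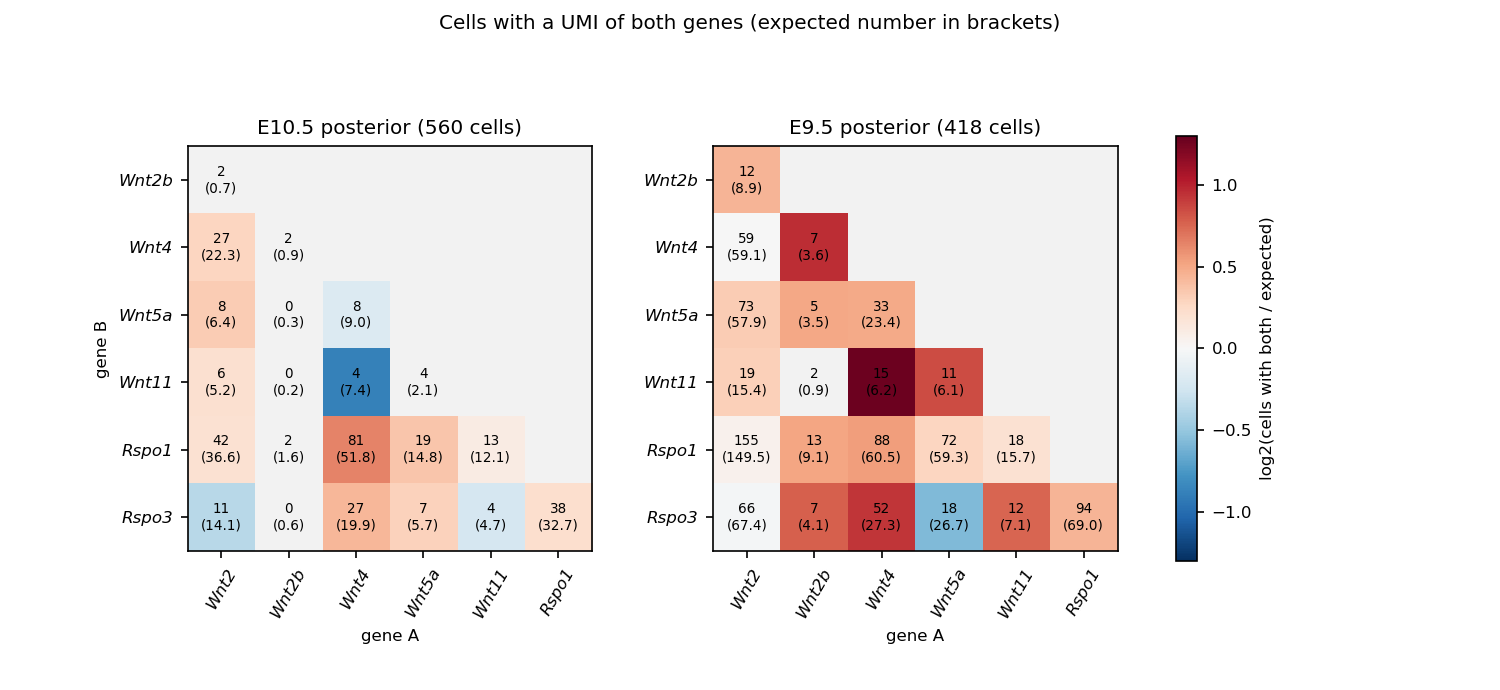
Number of posterior cells with a UMI of both genes of a pair, with the number expected from the 2 shares in brackets, at E10.5 (left) and E9.5 (right); colour is the log2 ratio of the 2 numbers, drawn where at least 3 cells were expected. The pair of Wnt4 and Rspo1 is red in both panels (81 against 51.8 cells and 88 against 60.5), and that of Wnt2 and Rspo3 is at or below the expected number in both.

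At least 1 of the 7 genes had a UMI in 63.9% of posterior, 75.2% of middle, 45.2% of outflow tract and 53.3% of anterior cells at E10.5, and in 87.1% of posterior, 60.7% of middle and 31.5% of anterior cells at E9.5. After thinning the order of the E9.5 libraries was the same, at 58.3%, 32.8% and 7.41%. Cells with both a Wnt ligand and an R-spondin numbered 148 against 114 expected in E10.5 posterior cells and 217 against 201 in E9.5 posterior cells. After thinning they numbered 95 against 71.9 at E10.5 and 43 against 46.0 at E9.5. In the outflow tract, 10 cells had a Wnt ligand and 4 an R-spondin. Of its 31 cells 0 had both, where only 1.29 were expected and the floor is 9.68%.

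The genes whose levels followed each member across single cells were ranked by the mean Pearson r over the E10.5 and E9.5 posterior libraries (560 and 418 cells) among 8261 genes; cells of a library share its depth and cell makeup, so r is a description. For Wnt2 they were Ccdc141 (mean r 0.396), Gyg (0.384), Prrx2 (0.372), Unc5c (0.365) and Tbx5 (0.352), the last a T-box factor of the posterior heart. For these 5 genes r was only 0.198 to 0.249 at E10.5, against 0.495 to 0.586 at E9.5. Tbx5 had a UMI in 32.8% of Wnt2-positive and 14.5% of Wnt2-negative E10.5 posterior cells, and in 25.2% and 12.2% of them at E9.5, all after thinning. For Wnt4 they were Msc (0.415), Nkx6-1 (0.403), Sparcl1 (0.388), Rspo1 (0.341) and Plpp3 (0.341). For Rspo1 they were Aldh1a2 (0.343), which encodes a retinoic acid synthesising enzyme, Wnt4 (0.341), Cxcl13 (0.332), Plpp3 (0.315) and the forkhead gene Foxf1 (0.288). By library, r for these 5 genes was 0.127 (Foxf1) to 0.274 at E10.5 and 0.361 to 0.489 at E9.5. Aldh1a2 was in 38.2% of Rspo1-positive and 22.0% of Rspo1-negative cells at E10.5 and in 60.2% and 27.6% of them at E9.5. The list of Rspo3 held homeobox genes, Hoxb1 (0.240), Hlx (0.214) and Hoxa5 (0.189), beside Epha4 (0.215) and Akap12 (0.201). Within E10.5 their r ran from 0.067 (Akap12) and 0.080 (Hoxa5) to 0.185 (Hlx), and within E9.5 from 0.243 to 0.345. That of Wnt5a began with the chemokine gene Cxcl12 (0.215), followed by Col26a1, Cdh11, Sox9 and Marcks. It was carried by the E9.5 library, where r was 0.292 to 0.344. At E10.5 r was only 0.056 to 0.091 for these genes. For Wnt11 the first gene, Pgm2, reached only 0.153, which is weak. Over all genes compared, the median of the mean r was 0.003 to 0.010 and the upper end of the central 95% of values 0.076 to 0.129.

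Shares of the listed marker genes differed between Wnt2-positive and Rspo1-positive cells, while those in Rspo3-positive cells were mixed. The share of all genes found more often in the positive cells was not obtained, so these marker counts have no background. After thinning, the E9.5 posterior library held 139 Wnt2-positive, 88 Rspo1-positive and 31 Rspo3-positive cells. In E9.5 posterior cells, thinned, 6 of 6 cardiomyocyte markers were found in a larger share of Wnt2-positive than Wnt2-negative cells, with shares summed over the markers of 198% and 104%, and so were 3 of 3 detected smooth muscle markers (83.5% and 26.2%). For Rspo1-positive cells it was 0 of 6 cardiomyocyte markers (97.7%, against 146% in Rspo1-negative cells) and 0 of 3 smooth muscle markers (18.2% and 53.1%). For Rspo3-positive cells at E9.5 it was 2 of 6 and 0 of 3, but at E10.5 a higher share held 4 of 4 smooth muscle markers both in posterior cells (18.3%, against 8.76% in Rspo3-negative cells) and in middle cells (50% and 20.8%). This was not particular to Rspo3. In E10.5 posterior cells it was also 4 of 4 for Wnt5a (25% and 9.17%) and 3 of 4 for Wnt2. For Wnt4 and Wnt11 it was 1 of 4 each, and for Rspo1 0 of 4. At E10.5, 5 of 6 cardiomyocyte markers had a higher share in Wnt2-positive than in Wnt2-negative posterior cells (43.8% and 24.6%). Of 9 epithelial markers, 0 had a higher share in Wnt2-positive, in Wnt4-positive or in Rspo1-positive E10.5 posterior cells than in the cells without the gene. Of 6 lung or foregut mesenchyme markers, 4 had a higher share in Wnt2-positive than in Wnt2-negative E10.5 posterior cells and 1 in E9.5 posterior cells, although the summed shares were lower in the Wnt2-positive cells at both stages (85.9% and 118% at E10.5, 38.8% and 61.6% at E9.5). One of that list, the homeobox gene Barx1, chosen here after its values were seen, was in 14.1% of Wnt2-positive and 54.8% of Wnt2-negative E10.5 posterior cells.

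Of the other pathway genes that could be tested none was called in a position comparison, which is no more than the shares of 0.295%, 0.193% and 0% over all genes would give for so few. Of 15 other Wnt and R-spondin genes 11 were in both matrices and 3 passed the filter on low counts, and 0 of 3 were called in any of the 3 position comparisons. The same held for 11 tested receptors and co-receptors, 3 R-spondin receptors and ligases, 3 secretion genes, 15 genes of intracellular transduction, 8 feedback targets and 8 planar cell polarity genes. For posterior against anterior cells the median log2 fold was 0.41 for the other Wnt and R-spondin genes, -0.06 for receptors, -0.19 for R-spondin receptors and ligases, -0.06 for transduction genes, -0.37 for feedback targets and -0.18 for planar cell polarity genes, beside 0.02 over all genes tested. Rspo2, an R-spondin needed for limb and lung development in the mouse, had 18.0 CPM in posterior, 79.4 CPM in middle, 15.3 CPM in outflow tract and 19.7 CPM in anterior cells at E10.5, and 6.23 CPM or less at E9.5. Lgr4, the R-spondin receptor, had between 15.7 and 39.4 CPM at E10.5 and between 9.26 and 16.2 CPM at E9.5, and the ligase gene Znrf3 between 8.49 and 15.8 CPM over all libraries. Lgr5, another such receptor, did not pass the filter and had at most 2.45 CPM, with 0 counts in 3 libraries. Axin2, a feedback target of β-catenin signalling, had 10.4 CPM in posterior, 16.7 CPM in middle, 15.3 CPM in outflow tract and 23.6 CPM in anterior cells at E10.5, and 10.3, 4.37 and 6.94 CPM in posterior, middle and anterior cells at E9.5. These 5 genes were chosen after their values were seen.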

How the data were processed

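The deposited values were raw UMI counts per gene and cell, 1 matrix per stage, per the labels from 10x Chromium libraries sequenced on a NextSeq. Cell Ranger 3.0, Seurat and mm10 are named in the submitters' processing notes; which annotation served for counting is not given in the sources used here. Positions follow from the barcode suffix. All cells were kept. Scrublet (20 components, run per library) marked 108 cells as doublets, from 3.28% or less in 4 libraries to 97.8% in the E10.5 anterior library; alternatives left the marked cells out.

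Counts were summed per library over the 16388 genes of both matrices. The 6 libraries of the 3 shared positions entered 1 model of stage and position (edgeR 4.0.16 in R 4.3.3, with TMM scaling, filterByExpr, glmQLFit and glmQLFTest), with the stages as replicates of a position. This leaves 2 residual degrees of freedom. The p-values measure how far position differences disagreed between the 2 stages, with information on the spread shared over genes. They measure no spread between embryos or repeated dissections, and the libraries need not come from separate animals. Calls are Benjamini-Hochberg adjusted p under 0.05 over 9825 genes. Each SE was obtained from the log2 fold and the root of its F statistic. Ratios have exact conditional Poisson intervals and shares Clopper-Pearson intervals at 95%; UMIs are counted molecules, and intervals and floors (3 counts) cover counting error only. Thinning to 4500 UMIs left out 89 posterior, 40 middle and 5 anterior cells at E10.5 and 8 posterior cells at E9.5. Cells were clustered in scanpy 1.11.5 (2000 variable genes without the 7 genes and Osr1, 20 components, 15 neighbours, Leiden at 0.6) and named only where at least 3 listed markers of a type were higher; names end in "like".

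All 7 genes are named in every library, with any pathway gene called in a position comparison and, for each member in at least 5% of cells of both posterior libraries, the 5 genes of highest mean r. The members, lists and markers were chosen with earlier results of these data known. Alternatives were DESeq2 1.42.0, its size factors, no low-count filter, no stage term, each library left out, doublets or other cell types left out, other thinning depths, detection at 2 UMIs and other clusterings.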

Additional observations from a re-analysis of the deposited data

Results flagged for a closer look

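Rspo3 differed in opposite directions at the stages between posterior and anterior cells. At E10.5 posterior cells had 0.565 and middle cells 0.428 of the anterior level. At E9.5 the anterior library had 0 counts, and with 3 counts set there posterior cells were 9.28-fold higher. Middle cells had 4 counts, which gives 1.08-fold by the same rule. That value leaves out the error of the 4 counts, so no direction is shown for middle against anterior cells at E9.5. The difference between the stages was not tested, because each stage is 1 sample, and the anterior values rest on 18 counts at E10.5 and 0 at E9.5.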

How the results depend on the processing

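The stage term pairs the positions of a stage, and it is part of the main analysis; the libraries carry no replicate numbers. Genes called for posterior against anterior cells numbered 29 in the main analysis, 260 without the low-count filter, 45 with DESeq2, 0 without the stage term, 194 without doublets marked in any library (which leaves 1 of 45 E10.5 anterior cells), 47 without other named types and 95 to 332 with 1 library left out. For posterior against middle cells (19) these were 178, 33, 0, 166, 32 and 37 to 231, and for middle against anterior cells (0) they were 64, 4, 0, 50, 5 and 14 to 123. Fits with 1 library left out have fewer residual degrees of freedom, and their larger counts are no sign of more support; the cause was not tested.

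Of the members' fitted folds under all alternatives, 164 kept direction and side of the threshold, 54 passed only under the alternative, 2 lost the call (Wnt2 and Rspo1 without the stage term) and 14 turned. Rspo3 for posterior against anterior cells was -0.47 without the E9.5 anterior and -0.63 without the E9.5 posterior library. For posterior against middle cells, leaving out the E9.5 middle or the E9.5 posterior library gave Wnt2 -0.18 and -0.13, Wnt4 -0.36 and -0.24 and Wnt11 -0.42 and -0.0071, and Wnt4 was -0.016 without the stage term. For middle against anterior cells Wnt5a was -0.027 without the E9.5 anterior library, Wnt11 -0.24 without the E10.5 anterior and -5.05 without the E10.5 middle library, and Rspo3 8.08 without the E10.5 anterior library and 7.82 without doublets. None of these turned values had been called. Those of Rspo3 at 8.08 and 7.82, like 9.21 for Rspo3 and 6.52, 8.08 and -5.05 for Wnt11 in the ranges that follow, are fitted where counts on 1 side were at or near 0 and are no bounds. With 1 library left out these folds ran, for posterior against anterior cells, from -0.63 to 9.21 (Rspo3); for posterior against middle cells from -0.18 to 1.43 (Wnt2), -0.36 to 2.30 (Wnt4) and -0.42 to 6.52 (Wnt11); and for middle against anterior cells from -0.027 to 0.88 (Wnt5a), -5.05 to 8.08 (Wnt11) and -1.61 to 8.08 (Rspo3).

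After thinning to 4500 UMIs, 2 members were 2-fold or more apart between outflow tract and anterior cells, against 0 before. This number took in genes at any count, and the share over all genes after thinning was not obtained. Before thinning Wnt4 and Rspo1 had only 1 to 3 counts in each of these libraries, so no change is read from it. Pairs above the expected number in both posterior libraries numbered 12, but 3 at 3000 UMIs and 4 with 2 UMIs required. Unnamed clusters held 92.3% of the members' UMIs at E10.5 (41.6% at resolution 0.3, 89.0% at 1.0, 83.4% with each stage clustered alone) and 46.0% at E9.5 (66.1% at 0.3 and 71.9% alone). In the main clustering they also held 82.3% to 100% of the cells of the E10.5 libraries. In the E9.5 libraries they held 22.2% (anterior) to 48.6% (posterior) of the cells. The UMI shares are therefore no sign that the members were concentrated there. The doublet alternative limited to libraries over 100 cells and the expected numbers within clusters were added after seeing the data; the doublet alternative gave 25, 14 and 0 calls in the 3 comparisons. The small anterior and outflow tract libraries limit every position ratio.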
